A study of Mus musculus with 16 samples.

Results

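The miRNAs described here are all names on an Agilent mouse miRNA array that begin with mmu-miR-297, mmu-miR-466, mmu-miR-467 or mmu-miR-669, whatever letter, arm or star follows. The array held 39 such names among 650, measured by 106 probes. The rule uses the names and no measured value.

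The signals came from sciatic nerves of mice, with 4 animals per group and 1 array per animal. The methods name 4 littermate pairs of mutant and control per age, which the labels do not identify. Mutants were Dicer fl/fl Dhh-Cre+, and controls were Dicer wt/fl Dhh-Cre+, so the controls also carried the Cre transgene and 1 floxed Dicer allele. Nerves were taken at embryonic day 17 (E17), before myelination, and at postnatal day 4 (P4), once it has begun. The 4 groups are control E17, mutant E17, control P4 and mutant P4. The Dhh promoter drives Cre in Schwann cells from their precursor stage, and the paper expects Dicer to be lost in this cell type alone. Whether the axons, fibroblasts, muscle, vessel and blood cells of the nerve keep their Dicer was not tested. In whole nerves, fewer cells of a type and less RNA per cell cannot be told apart. Each of the 2 slides held both genotypes at a single age, E17 on the one and P4 on the other, so an age difference and a slide difference cannot be told apart.

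A miRNA is cut from a hairpin precursor by the RNase III enzyme Dicer and then guides Argonaute proteins to partly matching mRNAs, mainly through its seed, the bases from position 2 to 8. The miR-297, miR-466, miR-467 and miR-669 hairpins are best known from a rodent-specific cluster inside Sfmbt2, a gene of a Polycomb group protein. The cluster arose by repeated duplication, and many mature sequences are runs of alternating U and G on 1 arm and of A and C on the other. Copies that differ by few bases can share a probe, so the name on the array says which sequence the probe was designed for rather than which copy was transcribed.

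The cluster does not cover all of these names. In the RefSeq gene table of GRCm38.p6, 37 of the 39 names had a gene of the same number and letter. Of these, 29 had genes only within Sfmbt2 on chromosome 2, 3 had genes both there and elsewhere (miR-297a*, miR-466f-3p and miR-466f-5p), and 5 lay only elsewhere. Those 5 are miR-466i on chromosome 13 within Cdk13, miR-466j on chromosome 10, miR-466k on chromosome 3, miR-467f on chromosome 11 within Fxr2, and miR-467g on chromosome 5 within Grk4. No gene was matched to miR-466a-3p and miR-466a-5p. The names are therefore called by their numbers below and not by the cluster.

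Mature sequences of 4 of the names were found in RefSeq (GRCm38.p6) under the array's spelling, all from genes outside Sfmbt2. They are printed 5′ to 3′ because they show the repeats, with the seed in capitals. miR-467f was detected on every array, and the other 3 on none.
miR-467f: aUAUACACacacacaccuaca
miR-467g: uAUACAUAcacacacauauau
miR-466j: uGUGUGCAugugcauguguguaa
miR-466k: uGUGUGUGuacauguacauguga
miR-467f lies at chr11:69635419-69635439 on the minus strand, and 12 of its 21 bases form 1 unbroken run of alternating A and C. miR-467g lies at chr5:34732872-34732892 on the minus strand and has such a run of 9 bases. It shares 11 consecutive bases with miR-467f (auacacacaca) but not its seed. miR-466j, at chr10:60960802-60960824 on the plus strand, and miR-466k, at chr3:85467396-85467418 on the plus strand, are of the U and G kind, with runs of 7 and 9 bases and different seeds. Over all 1679 mature mouse names in the table, 39 (2.32%) held UGUGUG or ACACAC.

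The gene-level call of the scanner software detected 13 of the 39 names on at least 1 array. miR-466f-3p, miR-467f and miR-669f were detected on all 16 arrays and miR-466i on 15. The other 9 appeared on fewer arrays. miR-467b was detected on all 4 control P4 arrays and on none of the other 12, and miR-467e on 3 control P4 arrays and nowhere else. miR-669c was detected on 3 arrays of each control group and on no mutant array. miR-669a was detected on 6 arrays and miR-467a* on 7, most of them at P4. miR-669h-5p was detected on 2 control P4 arrays and 1 mutant P4 array.

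Each of miR-297a*, miR-466a-3p and miR-466g was detected on 1 array. The remaining 26 names were detected on none. These were miR-297b-5p, miR-297c, miR-466a-5p, miR-466b-5p, miR-466c-5p, miR-466d-3p, miR-466d-5p, miR-466f-5p, miR-466h, miR-466j, miR-466k, miR-466l, miR-467a, miR-467b*, miR-467c, miR-467d, miR-467e*, miR-467g, miR-669b, miR-669d, miR-669e, miR-669g, miR-669h-3p, miR-669i, miR-669j and miR-669k. For miR-466a, miR-466f, miR-467b, miR-467e and miR-669h, 1 arm was detected and the other was not. For miR-467a it was the star form that was detected.

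**Figure D1:**
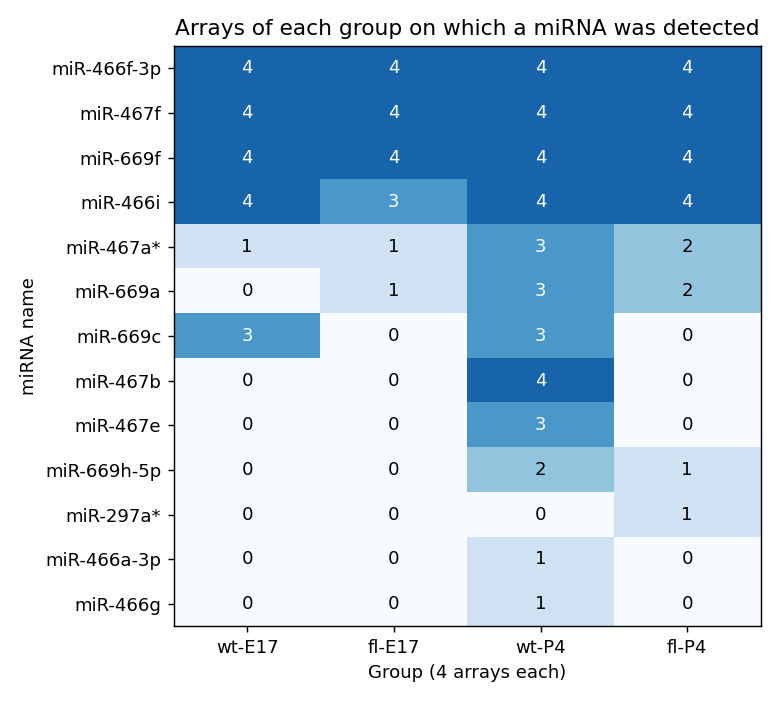
Number of arrays of each group (columns, 4 arrays each) on which the scanner software detected each of the 13 miRNAs seen at least once (rows). miR-466f-3p, miR-467f and miR-669f were seen on every array, while miR-467b and miR-467e were seen on control P4 arrays and nowhere else.

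Between 4 and 6 of the names were detected per control E17 array, 3 to 6 per mutant E17 array, 6 to 11 per control P4 array and 5 or 6 per mutant P4 array. Over all miRNAs, 197 to 260 names were detected per array. The summed background-subtracted signal of all names averaged 49387 scanner units in controls and 43362 in mutants at E17, and 134516 and 69457 at P4. Marker miRNAs of Schwann cells (miR-338-3p, miR-204 and miR-138) held 3.88% ± 0.504 (SD, n = 4) of it in P4 controls and 0.530% ± 0.0909 in P4 mutants. All 3 were expressed, and their share ranged from 3.38% to 4.58% in the controls and from 0.408% to 0.626% in the mutants. All 3 are among the miRNAs that the paper selected from these arrays as lower in P4 mutants and higher with myelination. Their fall at P4 was thus fixed by that choice. As products of Dicer, they also cannot serve as a count of Schwann cells lacking Dicer. The 6 markers of fibroblasts and smooth muscle, of which 5 were expressed, held 4.52% ± 0.337 and 10.4% ± 1.14, with ranges of 4.21% to 4.89% and 9.42% to 12%. The mean shares of the lists for skeletal muscle (0.263% and 0.817%), red blood cells (0.453% and 1.25%), leukocytes (0.199% and 0.525%), endothelium (1.09% and 1.66%) and neurons (0.130% and 0.161%) were also higher in P4 mutants than in P4 controls. The P4 groups overlapped for skeletal muscle (0.201% to 0.372% and 0.236% to 1.52%) and red blood cells (0.167% to 1.13% and 0.542% to 1.95%). All of these are shares of a sum that was lower in P4 mutants, so a higher share need not mean more signal.

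A name was called expressed where at least 2 of the 4 arrays of 1 group detected it, which 10 of the 39 names (the first 10 just described) and 281 of all 650 names did. Genes of 7 of them lay only within Sfmbt2, those of miR-466f-3p both there and elsewhere, and those of miR-466i and miR-467f only elsewhere. All 39 names together held 0.353% ± 0.0506 (SD, n = 4) of the summed signal in controls and 0.332% ± 0.0450 in mutants at E17. At P4 they held 0.229% ± 0.0666 in controls and 0.353% ± 0.239 in mutants. The last value rested on 1 array. Mutant P4 replicate 3 stood at 0.711% and the other 3 between 0.225% and 0.247%, and without miR-297a* that array stood at 0.452%.

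The high share on that array came with the only detection of miR-297a*. Its gene signal was 147 scanner units there and between 1.62 and 5.25 on the other 15 arrays. Of its 20 spots on that array, 2 were marked as outliers by the scanner software and read 751 and 1470 units after background subtraction. The other 18 read between -6.22 and 11. No unmarked spot of the name thus stood out on the array.

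In the account of levels that follows, a normalized signal is the log2 of the median spot signal, quantile normalized over the arrays, of the brightest probe of a name. It still contains the background of the array, so a log2 difference of a dim probe is smaller than the change of the miRNA itself. Probes not above background had a median normalized signal of 5.87 to 5.89 per array, and the lowest probe well above background lay between 6.20 and 6.55. The probe of miR-467f was well above background on 16 arrays, that of miR-669f on 15, of miR-466f-3p on 12 and of miR-466i on 11. The probes of miR-669c, miR-669a and miR-669h-5p were so on 2, 1 and 1 arrays, all of them control P4 arrays, and those of miR-467a*, miR-467b and miR-467e on none. For these 6 miRNAs no fold is given, since at least 1 group of each comparison lay below that level on all arrays and a bound, where one could be formed, came out under 1.

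miR-467f, the A and C repeat printed above, had normalized signals of 6.76, 6.72, 6.94 and 6.75 in E17 controls and 6.85, 6.67, 6.71 and 6.63 in E17 mutants, in the order of the replicates. At P4 it stood at 6.47, 7.10, 6.51 and 6.59 in controls and at 6.69, 6.84, 7.12 and 6.78 in mutants. The groups overlapped at both ages, and 1 array of each P4 group stood above the rest. miR-466f-3p was highest on the same arrays, with 6.23, 6.58, 6.25 and 6.30 in P4 controls and 6.34, 6.39, 6.66 and 6.40 in P4 mutants. miR-466i was too, with 6.18, 6.55, 6.20 and 6.24 in P4 controls and 6.25, 6.39, 6.60 and 6.30 in P4 mutants. At E17, miR-466f-3p ranged from 6.39 to 6.58 in controls and from 6.35 to 6.57 in mutants, and miR-466i from 6.32 to 6.48 and from 6.27 to 6.51.

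In each of the 4 groups the same array was the highest for miR-467f, miR-466f-3p and miR-466i. It was replicate 3 of the E17 controls, replicate 1 of the E17 mutants, replicate 2 of the P4 controls and replicate 3 of the P4 mutants. Of the other 7 expressed names, 2, 4, 2 and 0 were also highest on that array. How many of the expressed names of the whole array were highest on it was not counted. The summed signal of all names was the lowest of its group on E17 control replicate 3 and on mutant P4 replicate 3, the highest of its group on P4 control replicate 2, and neither on E17 mutant replicate 1. Its part in this pattern, which was noticed after the values were seen, was not tested. miR-669f, the other name detected on all 16 arrays and 1 that lies within Sfmbt2, was highest on that array in the E17 mutants alone.

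miR-669f had normalized signals of 6.78, 6.79, 6.71 and 6.65 in E17 controls and of 6.68, 6.55, 6.51 and 6.61 in E17 mutants. At P4 it stood at 6.83, 6.80, 6.76 and 6.82 in controls and at 6.50, 6.71, 6.66 and 6.72 in mutants. The P4 groups did not overlap, while the E17 groups did. miR-467a*, from hairpins with 10 gene copies in Sfmbt2, stayed within 6.13 to 6.15 in E17 controls, 6.15 to 6.19 in E17 mutants, 6.19 to 6.21 in P4 controls and 6.10 to 6.23 in P4 mutants. Its values lay near or under 6.20, the lowest signal of a probe well above background on any array.

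The other expressed names were dimmer, and the values of 4 of them are given although they were not among the brightest, a choice made after they were seen. miR-467e stood at 6.19, 6.14, 6.13 and 6.17 in P4 controls and at 5.98, 6.0, 5.99 and 5.98 in P4 mutants. At E17 it ranged from 5.98 to 6.04 in controls and from 5.95 to 6.07 in mutants. The P4 control arrays were thus the only ones above the remaining range. miR-467b stood at 6.19, 6.16, 6.21 and 6.15 in P4 controls, 6.02, 6.10, 6.07 and 6.06 in P4 mutants, and between 5.96 and 6.05 on the E17 arrays. miR-669c stood at 6.24, 6.23, 6.24 and 6.15 in E17 controls against 6.06, 6.07, 6.07 and 6.05 in E17 mutants. At P4 it stood at 6.25, 6.29, 6.18 and 6.23 in controls against 6.09, 6.16, 6.15 and 6.11 in mutants. For miR-669c the genotypes were apart at both ages. miR-669a ranged from 6.17 to 6.24 in P4 controls and from 6.09 to 6.19 in P4 mutants. miR-669h-5p split within its groups, with 2 control P4 arrays at 6.29 and the other two at 5.84 and 5.85.

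**Figure D2:**
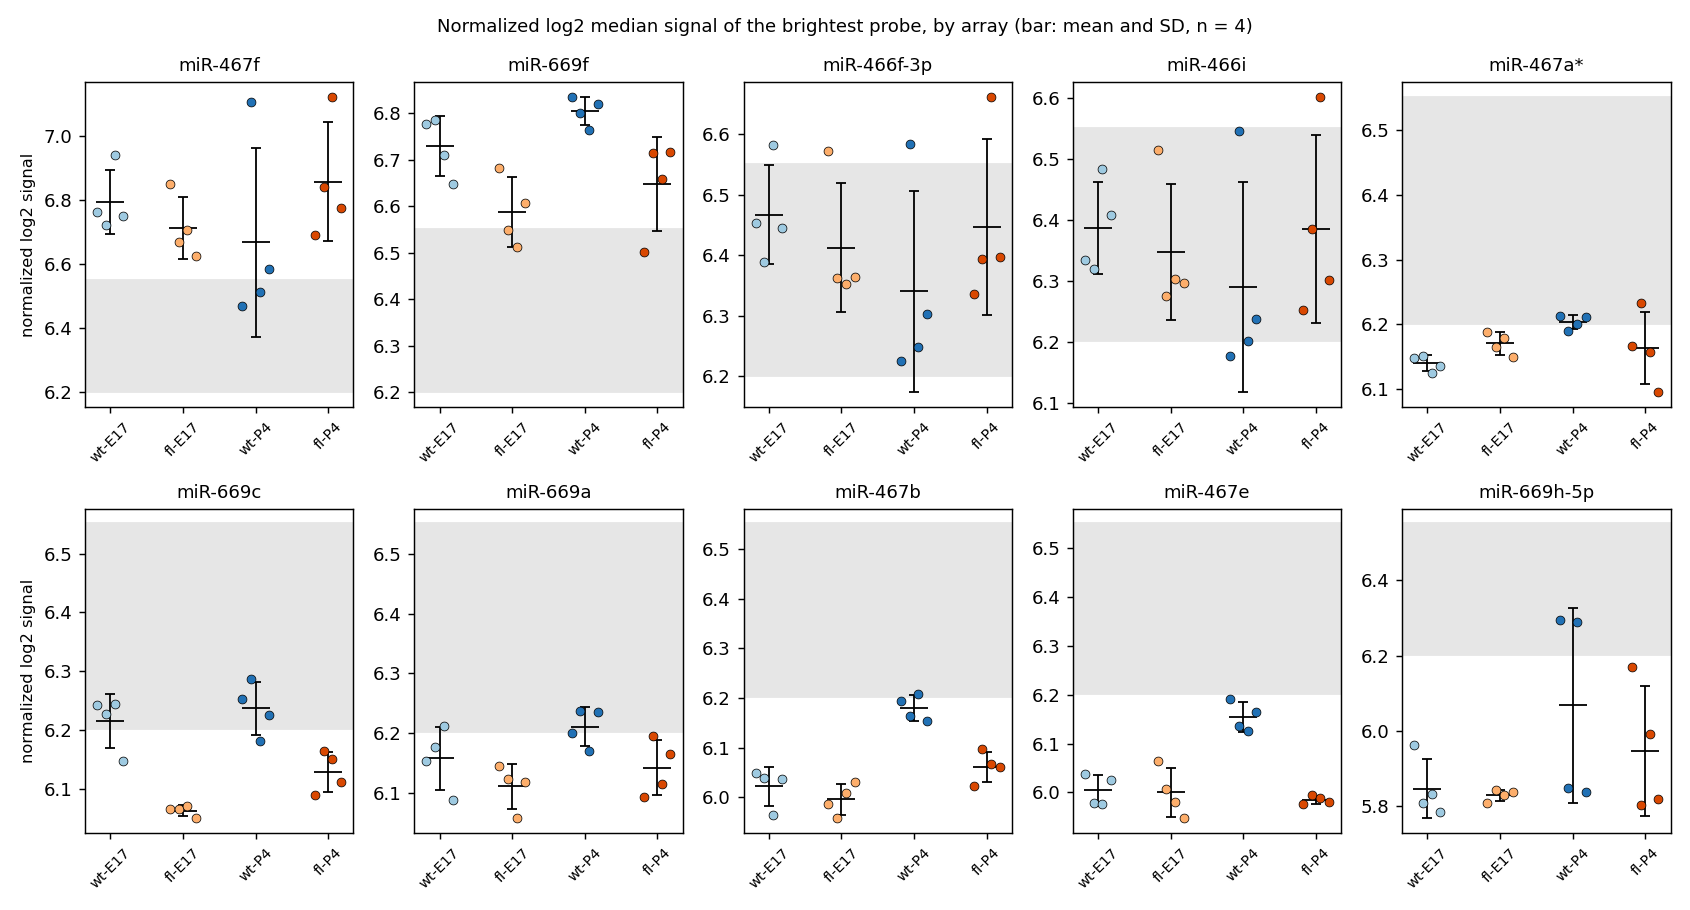
Normalized log2 signal of the brightest probe (y axis, a separate scale per panel) of the 10 expressed miRNAs on every array, by group. Points are arrays in the order of the replicates, bars give the mean and SD (n = 4), and the grey band marks 6.20 to 6.55, where the lowest probes well above background lay. miR-467f, miR-466f-3p and miR-466i share their highest array in each group, and miR-467b and miR-467e stand apart in P4 controls, at or just under the lower edge of the band.

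The first comparison asked which of these miRNAs depended on Dicer in Schwann cells at P4. Calls needed both an adjusted p not above 0.05 and a log2 difference of 0.5 or more, up or down, on any probe of the name. None of the 10 expressed names was called by limma, against 59 of all 281 names (21%). The methods' t-test also called 0 of the 10, and 5 had an unadjusted p under 0.05 in limma on at least 1 probe, as did 68.7% of all names. The differences of mutants minus controls ran from -0.17 to 0.19, with a median of -0.09 beside 0.06 over all 281 names. All 95% confidence intervals lay within -0.35 to 0.46, so a difference of 0.5 on this compressed scale was outside the interval of each of the 10.

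With the adjusted p alone, 5 of the 10 were lower in P4 mutants, where 30.2% of all names were lower. They were miR-467e (log2 difference -0.17 ± 0.0283 SE, adjusted p = 0.00022), miR-467b (-0.12 ± 0.0274, adjusted p = 0.00273), miR-669c (-0.11 ± 0.0300, adjusted p = 0.00961), miR-669f (-0.16 ± 0.0507, adjusted p = 0.0222) and miR-669a. For miR-669a it was the dimmer of its probes that passed (-0.09 ± 0.0279, adjusted p = 0.0150), while the brighter gave -0.07 ± 0.0333 with an adjusted p of 0.110. The dimmer probes of miR-467e (-0.08, adjusted p = 0.0136) and miR-669c (-0.10, adjusted p = 0.0313) passed as well. Those of miR-467b (-0.05, adjusted p = 0.0907) and miR-669f (-0.005, adjusted p = 0.927) did not. The names miR-467b and miR-467e were called expressed through the control P4 arrays alone, and miR-669c through control arrays of both ages alone. These 3 had to be lower elsewhere, so the count and their p-values are a description. With no normalization between arrays, miR-467e (adjusted p = 0.326), miR-467b (0.470) and miR-669c (0.408) did not pass. In that setting miR-669f was called lower (-0.52, adjusted p = 0.0136), as were 89 of all 281 names. When each array was left out in turn, miR-669f lost the adjusted p in 3 of 16 fits, giving -0.11 with an adjusted p of 0.0669 without mutant P4 replicate 1, 0.0556 without P4 control replicate 1 and 0.0509 without P4 control replicate 4. With the authors' normalized intensities, miR-669c (-0.12, adjusted p = 0.0675) and miR-669f (-0.08, adjusted p = 0.446) did not pass.

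miR-467f (0.19 ± 0.125, adjusted p = 0.243), miR-466f-3p (0.11 ± 0.0869, adjusted p = 0.348) and miR-466i (0.10 ± 0.0900, adjusted p = 0.420) did not pass. Without P4 control replicate 2, miR-467f stood at 0.33 with an adjusted p of 0.00774, and without mutant P4 replicate 3 at 0.10 with an adjusted p of 0.540. The differences of these 3 had the other sign, and their standard errors were wider than those of the dimmer miR-467e and miR-467b. miR-467a* (-0.04 ± 0.0267, adjusted p = 0.240) and miR-669h-5p (-0.12 ± 0.107, adjusted p = 0.389) did not pass either.

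The direction of these differences turned with the scaling. With no normalization the 3 names above 0 turned, to -0.13 for miR-467f, -0.10 for miR-466f-3p and -0.09 for miR-466i. Scaled to the 75th percentile in place of quantile normalization, the 7 names below 0 turned and 8 of the 10 were called higher in P4 mutants, as were 60.1% of all names, and the median of all probes moved to 0.56. Relative to that median, miR-669f stood at -0.42, miR-467e at -0.18, miR-669c at -0.16, miR-467b at -0.15 and miR-669a at -0.12. Schwann cell and fibroblast marker shares moved between the same groups, the former by the paper's choice of these miRNAs, as given above. Their part in these differences was not tested.

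The background-subtracted gene signal, the sum of a name's probes in scanner units with no normalization between arrays, is given next without a test. miR-467e read 15.1, 12.5, 10.3 and 11 units in P4 controls and 1.83, 1.45, 3.35 and 1.87 in P4 mutants. miR-467b read 16.5, 16.7, 15.6 and 12 against 5.49, 5.93, 6.56 and 5.24. In both cases the lowest control array lay above the highest mutant array, and no mutant array detected the miRNA. miR-669c averaged 22.4 ± 8.82 (SD, n = 4) in P4 controls and 9.45 ± 2.41 in P4 mutants, and miR-669a 18.8 ± 4.34 and 8.84 ± 2.69. The ratios of mutants to controls were 0.422 and 0.470. miR-669f averaged 64.2 ± 11.7 and 33.4 ± 6.41, a ratio of mutants to controls of 0.521, next to 0.516 for the summed signal of all names. As shares of that sum, the P4 groups overlapped for miR-467b, miR-669a, miR-669c and miR-669f, but not for miR-467e. In gene signal, 5 of the 10 names (miR-467b, miR-467e, miR-669a, miR-669c and miR-669f) were lower in P4 mutants without overlap, as were 41.6% of all names. Of these, miR-467b, miR-467e and miR-669c were called expressed through control arrays alone. They had to be lower in mutants, so the count is a description.

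The ratios of miR-466f-3p, miR-466i and miR-467f were nearer to 1, at 0.831, 0.832 and 0.790. They leaned on P4 control replicate 2, where miR-467f read 136 units against 37.1 to 43.4 on the other 3 control arrays, and 36.0 to 70.8 in the mutants. With background-subtracted signals normalized by quantiles and floored at 1 unit, limma called 4 of the 10, all lower, as were 26.3% of all names. They were miR-467b, miR-467e, miR-669a and miR-669c. All but miR-669a were called expressed through control arrays alone, so the count is a description. miR-669a was called through its dimmer probe, which was well above background on 0 arrays. Its brighter probe gave -0.44 with an adjusted p of 0.135 in limma. No mutant array had probes of these 4 names well above background. No control array did either for miR-467b and miR-467e, and only 1 and 2 P4 control arrays did for miR-669a and miR-669c.

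Of the names that were not expressed, miR-466a-3p and miR-466g are given because 1 P4 control array detected each. High readings in P4 controls are thus a description. miR-466a-3p read 16.2, 11.9, 16.1 and 11.4 units in P4 controls, the first of them detected, and 3.07, 6.42, 5.4 and 2.00 in P4 mutants. miR-466g, detected on P4 control replicate 2 alone, read 20.2 there and 3.65 to 4.85 on the other 3 P4 control arrays. Neither entered the fit.

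**Figure D3:**
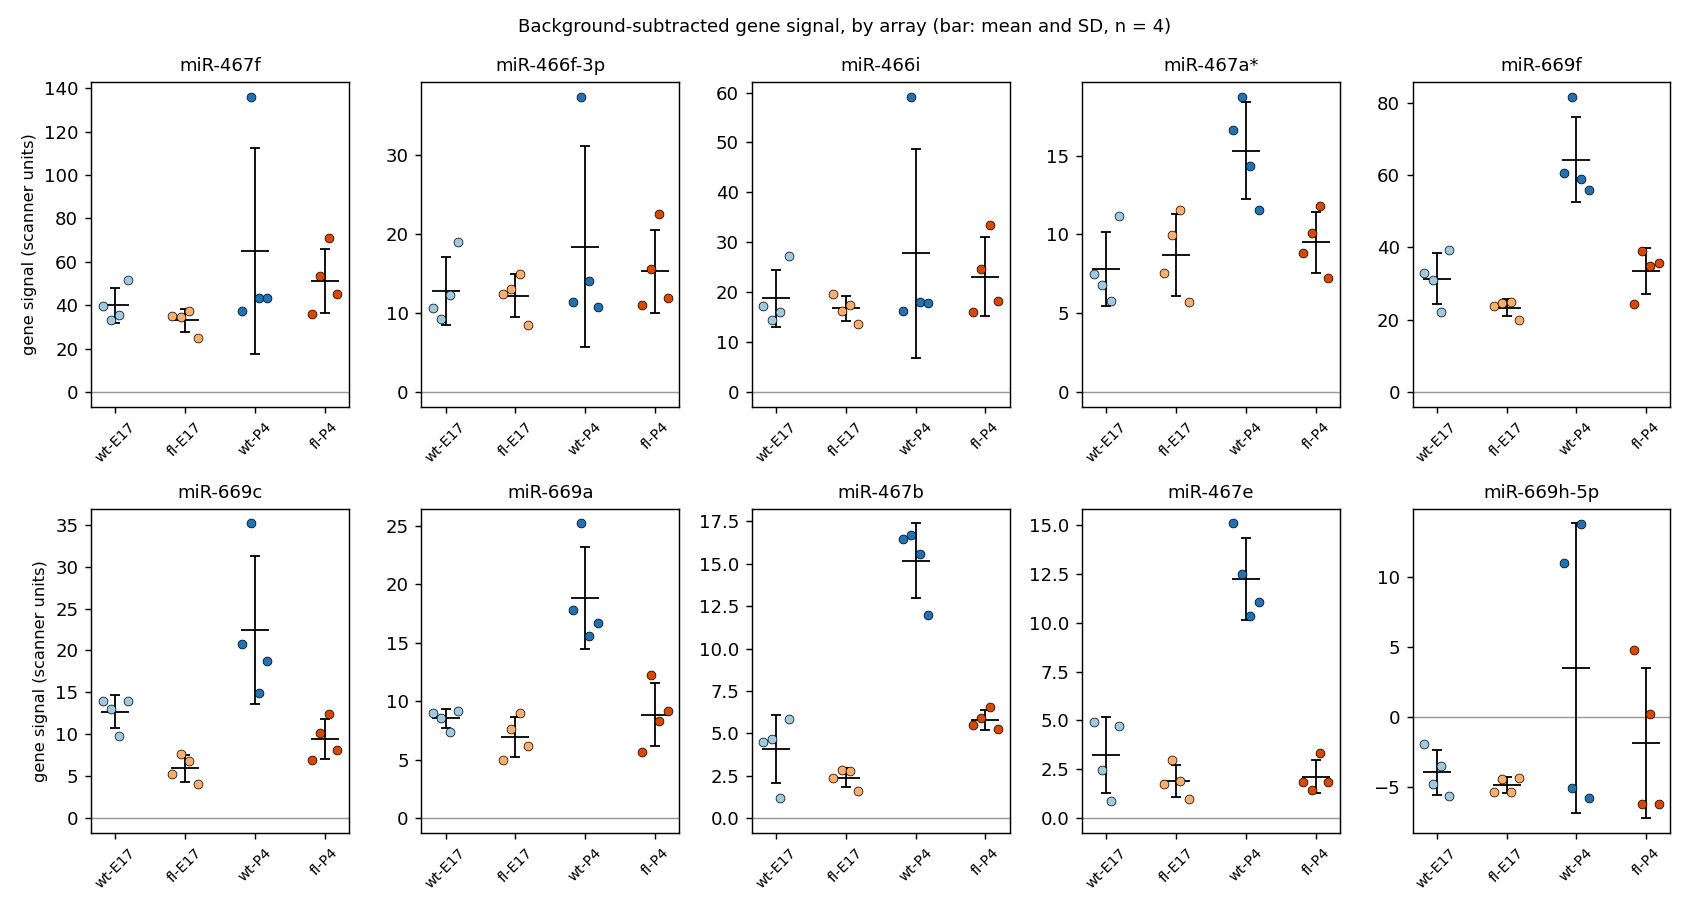
Background-subtracted gene signal in scanner units (y axis, a separate scale per panel, grey line at 0) of the 10 expressed miRNAs on every array, by group. Points are arrays in the order of the replicates and bars give the mean and SD (n = 4). miR-467e, miR-467b, miR-669a, miR-669c and miR-669f are higher on all P4 control arrays than on any P4 mutant array. Of these, miR-467e, miR-467b and miR-669c were called expressed through control arrays alone. miR-467f, miR-466f-3p and miR-466i peak on P4 control replicate 2.

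The same comparison at E17 asked whether the miRNAs depended on Dicer before myelination. None of the 10 was called by limma, against 6.05% of all names. The methods' t-test called 0 as well, and 2 had an unadjusted p under 0.05 in limma (39.5% of all names). The median difference was -0.04 beside -0.00 over all names, and the differences ran from -0.15 to 0.03. With the adjusted p alone, 1 of the 10 was lower, where 8.54% of all names were. This was miR-669c (-0.15 ± 0.0300, adjusted p = 0.00691), a name that was called expressed through control arrays alone and so had to be lower in mutants. Its dimmer probe gave -0.11 ± 0.036 with an adjusted p of 0.067. The sign of the brighter probe turned with 75th percentile scaling (0.17) and without normalization (0.16), where the median of all probes moved to 0.26 and 0.25. The Schwann cell markers held 1.78% ± 0.361 (SD, n = 4) of the summed signal in E17 controls and 1.28% ± 0.0600 in E17 mutants, and the red blood cell markers 3.15% ± 1.66 and 8.02% ± 2.98. The groups did not overlap for the Schwann cell markers but did for the red blood cell markers. They were also apart for the markers of fibroblasts and smooth muscle (6.45% ± 1.33 and 9.29% ± 0.459), leukocytes (0.246% ± 0.0319 and 0.377% ± 0.0300) and endothelium (0.912% ± 0.125 and 1.21% ± 0.166). Their part in the difference was not tested.

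In gene signal, miR-669c read 14, 13.1, 9.86 and 14 units in E17 controls and 5.25, 7.71, 6.81 and 4.11 in E17 mutants. It was the only one of the 10 without overlap at E17, as were 9.25% of all names in this direction. The name was called expressed through control arrays alone, so this is a description. miR-669f had -0.14 ± 0.0507 with an adjusted p of 0.0888. miR-467e (-0.00 ± 0.0283, adjusted p = 0.939) and miR-467b (-0.03 ± 0.0274, adjusted p = 0.598), which differed at P4, were detected on no array of either genotype at E17.

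Whether the mutant effect differed between the ages was tested as the difference of the 2 differences. None of the 10 was called by limma, against 9.61% of all names, and 2 had an unadjusted p under 0.05 (39.1% of all names). The methods' t-test has no such term. With the adjusted p alone, miR-467e passed (-0.17 ± 0.0400, adjusted p = 0.0118), in a direction in which 15.3% of all names did. miR-467e was called expressed through the control P4 arrays alone, so this is a description. Its dimmer probe did not pass (-0.05, adjusted p = 0.307). The brighter probe did not pass with background-subtracted signals (adjusted p = 0.136) or with no normalization (adjusted p = 0.0776). With 75th percentile scaling the brighter probe gave 0.07 (adjusted p = 0.804). For miR-467f the difference of the effects was 0.27 (adjusted p = 0.363), and 0.42 without P4 control replicate 2 (adjusted p = 0.0264). The effect on miR-669c did not differ detectably between the ages (0.04, 95% confidence interval -0.05 to 0.14, adjusted p = 0.564).

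**Figure D4:**
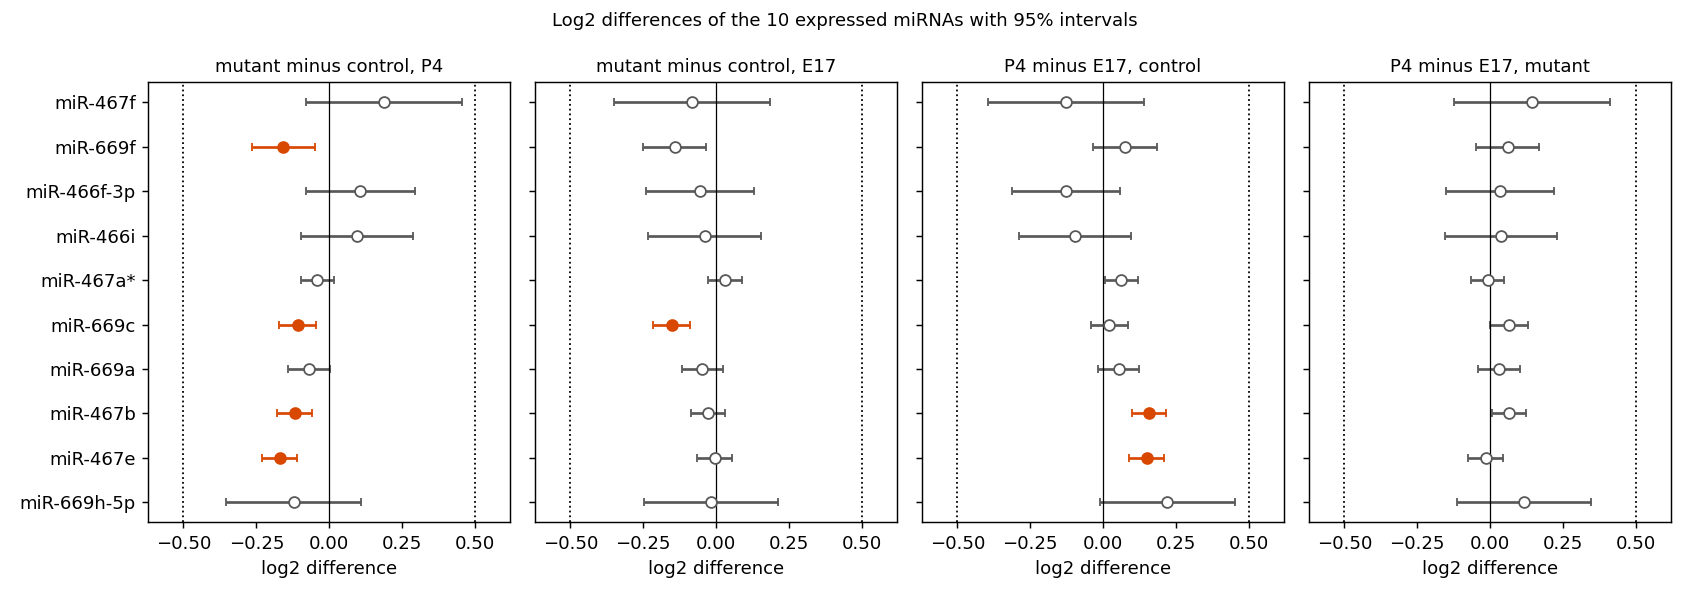
Log2 differences (x axis) of the brightest probes of the 10 expressed miRNAs in 4 comparisons, with 95% confidence intervals from limma, 4 arrays per group. Filled orange points have an adjusted p of at most 0.05, and dotted lines mark the limit of 0.5. No point reaches the limit. Under 75th percentile scaling all 10 differences are above 0 between the genotypes at either age and below 0 with age in either genotype, and with no normalization signs turn as well.

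Between E17 and P4 in controls, none of the 10 was called by limma, against 20.3% of all names. The methods' t-test called 0, and 3 had an unadjusted p under 0.05 in limma (62.3% of all names). With the adjusted p alone, miR-467b (0.16 ± 0.0274, adjusted p = 0.000456) and miR-467e (0.15 ± 0.0283, adjusted p = 0.000827) were higher at P4, where 31.7% of all names were. Both were expressed through the control P4 arrays alone. Their dimmer probes gave 0.06 (adjusted p = 0.0523) and 0.04 (adjusted p = 0.165) and did not pass. The median difference over the 10 was 0.06 beside -0.02 over all names. In gene signal 6 of the 10 were higher at P4 without overlap, as were 58% of all names, and the summed signal of all names was 2.72 times as high at P4. Without P4 control replicate 2, miR-467f (-0.27, adjusted p = 0.0262) and miR-466f-3p (-0.21, adjusted p = 0.0413) were lower at P4 and miR-669h-5p (0.29, adjusted p = 0.0406) higher. The array left out was 1 of the 2 low P4 control arrays of miR-669h-5p. That name was called expressed through the control P4 arrays alone, so its value is a description. Under 75th percentile scaling all 10 were called lower at P4, as were 64.1% of all names, while the median of all probes moved to -0.64. Relative to it, miR-467b stood at 0.12 and miR-467e at 0.10.

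In mutants none of the 10 was called with age by limma, against 10.7% of all names. The methods' t-test called 0, and 2 had an unadjusted p under 0.05 in limma (55.9% of all names). With the adjusted p alone none of the 10 passed, against 42.3% of all names. The largest difference was that of miR-467f (0.14 ± 0.125, adjusted p = 0.450). In gene signal 1 of the 10, miR-467b, was higher at P4 without overlap, with 2.40 ± 0.576 (SD, n = 4) units at E17 and 5.81 ± 0.580 at P4, as were 37% of all names. No mutant array detected it at either age.

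**Figure D5:**
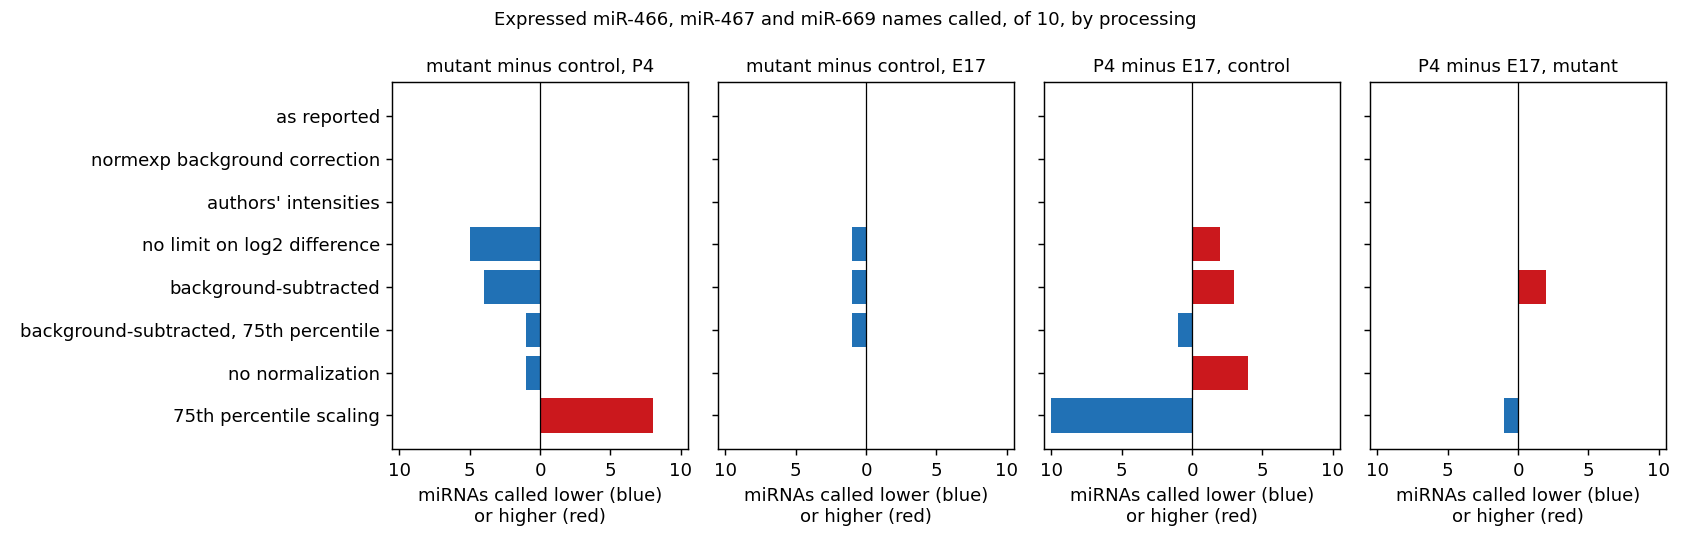
Number of the 10 expressed miRNAs called lower (blue, to the left of 0) or higher (red, to the right) in 4 comparisons under 8 ways of processing. As reported, with normexp background correction and with the authors' intensities, none is called. Under 75th percentile scaling 8 are called higher in P4 mutants and 10 lower at P4 in controls, while the median of all probes moves to 0.56 and -0.64.

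Names outside these families with the same repeats were compared next. Of the other mouse names on the array, 6 had a RefSeq mature sequence of the same name with UGUGUG or ACACAC, and 4 were expressed. Names that RefSeq spells otherwise were not searched. The pair with the longest repeats is printed for comparison, with the seed in capitals.
miR-574-5p: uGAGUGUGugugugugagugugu
miR-1187: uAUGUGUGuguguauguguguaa
miR-574-5p lies at chr5:64970328-64970350 on the plus strand and miR-1187 at chr5:82798964-82798986 on the minus strand (GRCm38.p6). Their unbroken runs of alternating U and G have 13 and 11 bases, against 9 in miR-466k and 7 in miR-466j. Both were expressed, unlike miR-466j and miR-466k, which were detected on no array.

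miR-574-5p stood at 7.21, 8.02, 7.19 and 7.41 in P4 controls and at 7.57, 7.88, 7.85 and 7.76 in P4 mutants. miR-1187 stood at 6.33, 7.11, 6.39 and 6.53 in P4 controls and at 6.64, 6.93, 7.01 and 6.77 in P4 mutants. P4 control replicate 2 was the highest of its group for both, as for miR-467f, miR-466f-3p and miR-466i. The same held for E17 control replicate 3 and E17 mutant replicate 1, and for mutant P4 replicate 3 with miR-1187, while miR-574-5p was highest on mutant P4 replicate 2 there (7.88 against 7.85). miR-574-3p had the same highest arrays as miR-574-5p. miR-362-3p shared E17 mutant replicate 1 alone and was highest on E17 control replicate 2, P4 control replicate 4 and mutant P4 replicate 2. No comparison name was called between the genotypes at either age. miR-574-5p was called lower at P4 in controls (-0.67 ± 0.156, adjusted p = 0.00374).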

How the data were processed

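Total RNA of each nerve was labeled with Cyanine 3. The authors deposited the scanner output of Agilent Feature Extraction 10.5.1.1, with an intensity per spot before normalization between arrays, and a table of normalized probe intensities. The log2 median signals computed from the deposited intensities were quantile normalized over 13000 non-control spots, and spots marked as outliers were left out before averaging per probe. Signal, transform and normalization follow the methods. The groups follow the labels. Group means of 681 probes of 281 expressed names were estimated on all 16 arrays by lmFit and eBayes of limma 3.58.1 (R 4.3.3), with Benjamini-Hochberg adjustment over all 681 probes. The t-test that the methods name was an alternative. The steps were tested on simulated data.

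Every expressed name could be named, by its brightest probe. Values per array were given for called names and the 5 brightest, and for others as stated. The names and lists were chosen with earlier results of these data known. Gene positions come from GRCm38.p6. No build for the array's design is given in the sources used here. The number of arrays limits the precision.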

Additional observations from a re-analysis of the deposited data

Results flagged for a closer look

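Of 44 groups of 4 arrays examined (10 expressed miRNAs and the share of summed signal, in 4 groups each), 5 held an array far from the other 3, and chance alone flags about 1 group in 20. miR-466f-3p stood at 6.57 on E17 mutant replicate 1 against 6.35 to 6.36 on the others. miR-466i stood at 6.51 on the same array against 6.27 to 6.30. miR-466i also stood at 6.55 on P4 control replicate 2 against 6.18 to 6.24. miR-467b stood at 5.96 on E17 control replicate 3 against 6.04 to 6.05, in a group in which no array detected it. The share of summed signal was 0.711% on mutant P4 replicate 3 against 0.225% to 0.247%, the array with the marked spots of miR-297a*.

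The mutant effect on miR-467e differed between the ages (-0.17 on the log2 scale, adjusted p = 0.0118 by limma), below the limit of 0.5. The adjusted p was 0.136 with background-subtracted signals, 0.0776 with no normalization and 0.804 with 75th percentile scaling, where the sign turned. The dimmer probe of miR-467e gave -0.05 with an adjusted p of 0.307. miR-467e was lower in P4 mutants on 4 of 4 arrays, but it was called expressed through the control P4 arrays alone, so the difference is a description.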

How the results depend on the processing

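Most alternatives left the count of called names at 0 of 10. With background-subtracted signals it was 4 at P4 (lower), 1 at E17 (lower), 3 with age in controls (higher) and 2 with age in mutants (higher). The first 3 of these counts include names called expressed through control arrays alone, so they are a description. With no normalization the count of called names was 1 at P4 and 4 with age in controls. With 75th percentile scaling it was 8 at P4, 10 with age in controls and 1 with age in mutants. Without the limit of 0.5 it was 5, 1 and 2 in the first 3 comparisons and 1 for the difference of the effects. Chosen after seeing the data, background-subtracted signals with 75th percentile scaling gave 1, 1 and 1 in the first 3, and background-subtracted signals without the limit gave 5, 1, 3 and 2. Over all names at P4, 29 were called higher and 30 lower as reported, 74 and 74 with background-subtracted signals, 1 and 89 with no normalization, and 169 and 41 with 75th percentile scaling. With age in controls the calls were 23 and 34, 161 and 4 with no normalization, 74 and 65 with background-subtracted signals, and 36 and 180 with 75th percentile scaling. Background-subtracted signals gave 5 and 15 at E17 and 46 and 47 with age in mutants. The names expressed fell from 10 to 5 when all 4 arrays of a group had to detect them, and to 5 when probes had to be well above background. Without background subtraction the share of summed signal was 3.27%, 3.71%, 2.14% and 3.04% in E17 controls, E17 mutants, P4 controls and P4 mutants. Under 75th percentile scaling the change with age in controls reversed to -0.60 for miR-467a*, -0.53 for miR-467b, -0.55 for miR-467e, -0.60 for miR-669a, -0.62 for miR-669c and -0.50 for miR-669h-5p. The median of all probes moved with it, and no other cause was tested.

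Leaving out each array in turn gave 0 called names in every comparison, and leaving out P4 control replicate 2 and mutant P4 replicate 3 together, chosen after seeing the data, also gave 0. With the adjusted p alone, miR-467f passed without that pair at P4 (0.25, adjusted p = 0.0101), with age in controls (-0.27, 0.00412) and for the difference of the effects (0.33, 0.0191), which is no support, since its own high values chose the arrays. Leaving out 1 array also let miR-467a* and miR-669h-5p pass with age in controls and miR-669f at E17. For miR-669h-5p this is a description, since it was called expressed through the control P4 arrays alone. With each array left out, the share ranged from 0.335% to 0.373% in E17 controls, 0.318% to 0.349% in E17 mutants, 0.196% to 0.244% in P4 controls and 0.234% to 0.396% in P4 mutants. Of 1605 alternative values, 1558 kept their side of the threshold and 98 changed sign. The replicate block gave 0 called names in every comparison. The labels do not say whether the replicate numbers mark the littermate pairs. Same-numbered arrays deviated from their group means with correlations over probes of -0.52 to 0.09 at E17 and -0.28 to 0.46 at P4. So few values cannot decide whether the numbers mark pairs, and the main fit used no pairing. Normexp on the mean spot signal was planned but not run, as the scanner output read here held no mean signal. Normexp on the median signal, chosen after seeing the files, gave 0 in every comparison. Signals near background limit what a difference of 0.5 can show for the 6 dimmest names.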
